A study of Mus musculus with 24 samples.

Results

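Serpins are a family of protease inhibitors, and 9 serpin genes of the mouse left ventricle are described here: Serpina3n, Serpine2, Serpinf1, Serping1, Serpinb1a, Serpinb6a, Serpinb8, Serpinb9 and Serpini1. They were taken by gene symbol from the expression table, where all 9 are present among 14912 genes. The study compared the left ventricle of wild-type mice after 7 days of subcutaneous infusion of ANG II at a pressor dose of 1500 ng/kg/min (the hypertensive-LVH group, 12 samples) with that of mice given saline from the same kind of osmotic mini-pump (the control group, 12 samples). LVH is left ventricular hypertrophy. The methods of the study describe the mice as male C57BL/6J, and no source used here gives their age. Each sample is a whole left ventricle flushed of blood, so that its RNA comes from all cell types together, and fewer cells of a type cannot be told apart from less RNA per cell.

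An inhibitory serpin offers a protease an exposed loop as bait, and once the protease cuts it, the serpin changes shape and traps the enzyme for good. Serpins hold coagulation, plasminogen activation, complement and the proteases of leukocytes in check in this way, and each clade (the letter in the name) has its own usual targets. Some members have lost inhibition and act as hormones or chaperones. Secreted serpins of clades A, E, F and G act in plasma and in the matrix around cells, whereas most clade B serpins stay inside the cell.

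The 9 genes lie on 6 chromosomes (positions from GENCODE vM21, GRCm38). Serpina3n lies at chr12:104406729-104414329, Serpine2 at chr1:79794197-79861180, Serpinf1 at chr11:75409769-75422701 and Serping1 at chr2:84765387-84775444. Of the clade B genes, Serpinb1a (chr13:32842092-32851185), Serpinb9 (chr13:33003250-33017957) and Serpinb6a (chr13:33917918-34002794) share a cluster, and Serpinb8 lies at chr1:107590006-107610484. Serpini1 lies at chr3:75557547-75643495. Serpina3n has near copies beside it, yet only 0.204% of its 100-base stretches occurred in the transcript of another gene (Serpina3e-ps). For Serpini1 this share was 0.15%, and for the other 7 members it was 0.

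RefSeq promoter windows (GRCm38.p6) were found for 7 of the members, and not for Serping1 and Serpinb1a. Each window was searched over the 250 bases before the start, on both strands, for 6 motifs: the STAT motif TTCNNNGAA, the NF-kB motif, the C/EBP motif TTGCNNAA, the AP-1 motif TGANTCA, the Sp1 motif GGGCGG and the TATA box TATAAA. Among 32851 windows of the same length, the motifs were present in 7.02% (STAT), 0.356% (NF-kB), 9.56% (C/EBP), 6.75% (AP-1), 32.7% (Sp1) and 12.4% (TATA box). Stretches without an annotated exon are shown for Serpina3n, the member with the largest fold change, for Serpine2, which held the most matches, and for Serpinb6a, the member with the smallest adjusted p. Capitals mark the matches. The stretches are Serpina3n at chr12:104406458-104406707 (plus strand), Serpine2 at chr1:79858697-79858915 (minus strand) and Serpinb6a at chr13:34002795-34002873 (minus strand), each written 5′ to 3′.
Serpina3n: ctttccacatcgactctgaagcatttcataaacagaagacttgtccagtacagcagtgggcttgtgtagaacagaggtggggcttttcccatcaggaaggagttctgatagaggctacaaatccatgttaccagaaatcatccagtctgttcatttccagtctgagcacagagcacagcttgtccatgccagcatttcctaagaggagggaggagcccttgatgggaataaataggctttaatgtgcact
Serpine2: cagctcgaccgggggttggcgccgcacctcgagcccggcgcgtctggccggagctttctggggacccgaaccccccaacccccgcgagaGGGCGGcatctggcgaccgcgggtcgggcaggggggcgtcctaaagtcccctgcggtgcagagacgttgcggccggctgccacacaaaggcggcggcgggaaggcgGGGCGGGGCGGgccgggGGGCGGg
Serpinb6a: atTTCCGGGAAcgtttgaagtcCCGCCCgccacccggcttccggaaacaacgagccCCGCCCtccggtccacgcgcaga

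The Serpina3n stretch held none of the 6 motifs. The Serpine2 window held the Sp1 letters 6 times, and 4 of these are in the stretch shown, with 1 overlapping pair. The Serpinb6a stretch held the STAT letters once, from 77 to 69 bases before the start, and the Sp1 letters on the opposite strand in 2 places. An exon of Ripk1 on the other strand lies just before its 5′ end. The Serpinb8 window held the AP-1 letters once, and those of Serpinf1, Serpinb9 and Serpini1 held no match. These are matches of letters, and no binding was measured.

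The authors give 1 FPKM value per gene and sample, a count of fragments scaled to the length of the transcript and to the mapped fragments of the sample, so levels can be compared between genes per length. The values are not plain FPKM, since 2741 of them (0.766%) are negative, and exact ties between samples divide each group into 4 triplets, numbered 1 to 3, 4 to 6, 7 to 9 and 10 to 12. Triplets with the same numbers in both groups shared 1 step between their values for at least 99.9% of genes, against at most 1.47% for triplets with different numbers, and such a pair is called a set here. The values were read with a model in which a gene was shifted and scaled within each set around 1 group difference. Under this model the steps gave the differences within a set before the adjustment for 13465 of 14026 genes tested, including all 9 members, but not the offset of a set. As deposited, samples 4 to 6 stood apart in both groups. The summed fibroblast markers (Pdgfra, Dcn, Lum, Col1a1, Col1a2, Tcf21) of their controls averaged 188 FPKM, against 582 to 646 in the other control sets. Those of their ANG II samples averaged 1342 FPKM, against 753 to 846 in the other ANG II sets. Before the adjustment, the ANG II difference of this sum was larger in samples 4 to 6 as well. It was 1308 FPKM there, against -8.27, 370.0 and 225 in samples 1 to 3, 7 to 9 and 10 to 12. Because the offset of a set is unknown, low controls cannot be told apart from high ANG II samples as the source of this larger difference. Results are therefore given with and without samples 4 to 6 of both groups. The tissue label held, since the 6 cardiomyocyte markers (Myh6 and others) summed to 29951 or more in every sample. No source used here states the sequencing depth.

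All 9 members had a higher mean in the hypertensive-LVH group. By the criteria of the study (adjusted p under 0.05 and an absolute log2 fold change over 0.5, limma), Serpina3n, Serpine2 and Serpinf1 rose, which is 3 of 9 members against 4.52% of all genes tested (5.92% in either direction). By adjusted p alone, Serping1 and Serpinb6a passed as well, which is 5 of 9 against 20.9%. With a term for the set in the fit, Serping1 did not pass (adjusted p = 0.0587, limma), and 4 of 9 members passed against 17.0% of all genes. Serpinb1a, Serpinb8, Serpinb9 and Serpini1 did not pass. The median log2 fold change of the 9 members was 0.46, and that of all genes tested was 0.05. Without samples 4 to 6 of both groups, 0 members met both criteria (limma) and 1, Serpinb6a, passed by adjusted p, where 2.30% and 8.36% of all genes did, and 2 members had an unadjusted p under 0.05. Without ANG II sample 6 alone, 1 member met both criteria. The share of all genes was not counted for this fit or for the unadjusted p.

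**Figure D1:**
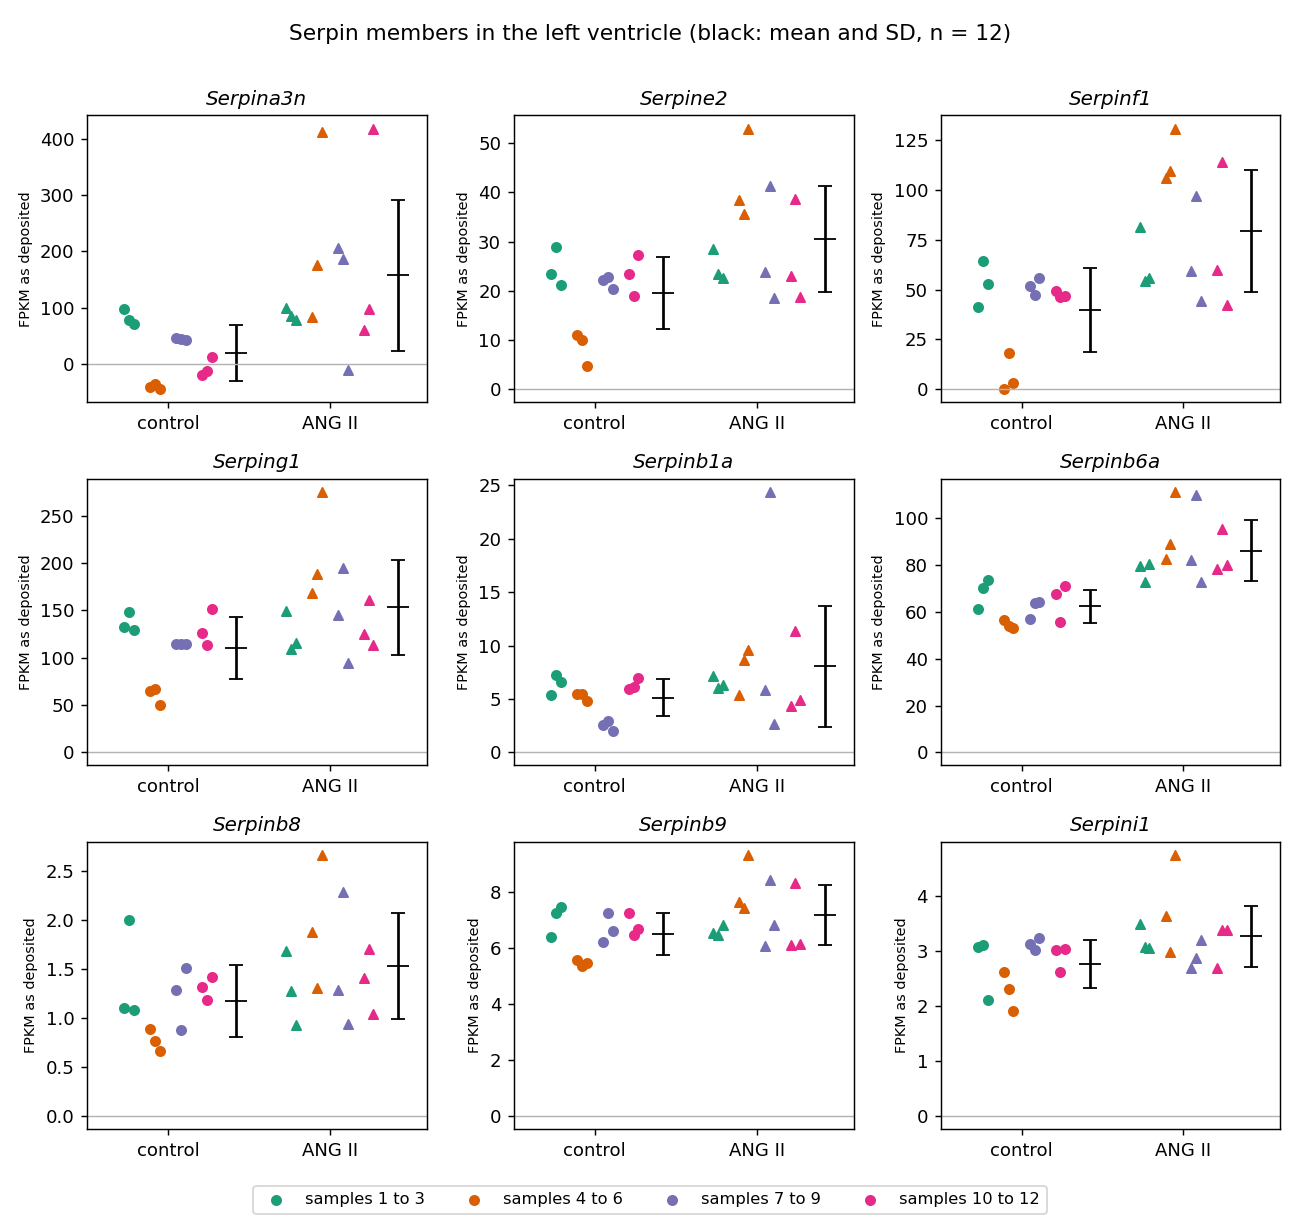
FPKM as deposited (linear axis, grey line at 0) of each member in the 12 control samples (circles) and the 12 samples of the hypertensive-LVH group (triangles), coloured by set, with the mean and SD of each group in black. Control samples 4 to 6 are the lowest controls for Serpina3n, Serpine2, Serpinf1, Serping1 and Serpinb9, and 10 of 12 ANG II samples of Serpinb6a are above every control sample.

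Serpina3n, a secreted serpin that is the mouse counterpart of antichymotrypsin and is known as an acute phase gene, ranged between -11.7 and 419 FPKM after ANG II (median 98.5) and between -45.3 and 96.8 in controls (median 27.4). The ranges overlapped, with 7 of 12 ANG II samples above the highest control sample and 11 of 12 above the control median. The means were 157 ± 135 (SD, n = 12) and 19.3 ± 49.8 (SD, n = 12). The log2 fold change of FPKM + 1 was 3.26 ± 1.00 (standard error, adjusted p = 0.015, limma). Negative values, which occurred in 5 control samples and 1 ANG II sample, were set to 0 on this scale, so that the size of the fold change depends on the adjustment. The 5 negative control values were all in samples 4 to 6 and 10 to 12. From samples 1 to 3 up to samples 10 to 12, the log2 difference by set was 0.11, 7.51, -0.41 and 5.83. In samples 7 to 9, where ANG II sample 9 was set to 0, the ANG II mean as deposited was 83.2 FPKM above the control mean. Among the 24 fits that left out 1 sample, the log2 fold change lay between 2.96 and 3.86, and adjusted p stayed under 0.05 in all 24. Without samples 4 to 6 of both groups, it was 1.85 (adjusted p = 0.243, limma), and without samples 10 to 12 it was 2.41 (adjusted p = 0.139). It was 4.31 without samples 1 to 3, 4.49 without samples 7 to 9 and 4.38 with a pseudocount of 0.1, with adjusted p under 0.05 in each of these 3 fits (limma).

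The order of samples of Serpina3n was not the same before the adjustment. ANG II sample 9 is listed at -11.7 FPKM, under its 3 controls at 42.1 to 46, but before the adjustment it was 14.8 FPKM above the mean of these controls, whose highest value was 1.26 above that mean. In samples 4 to 6, the ANG II samples were 119, 243 and 564 FPKM above their control mean. In samples 7 to 9, they were 152, 140.5 and 14.8 above it, and in samples 10 to 12, 46.7, 95.2 and 512. In these 3 sets, each of the 9 ANG II samples was above every control sample of its set. In samples 1 to 3, they were 12, -3.79 and -10.3 from a control mean around which the controls themselves ranged from -11.9 to 16.4, so the groups overlapped. Over the 4 sets the difference was 157 FPKM (exact permutation test within sets, two-sided, adjusted p = 0.00428).

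Serpine2, also called protease nexin-1, inhibits thrombin, urokinase and plasmin at cell surfaces. Its values ranged between 18.5 and 53 FPKM after ANG II (median 26.2) and between 4.73 and 29 in controls (median 21.6). Control samples 4 to 6 were the 3 lowest of all samples, at 4.73 to 10.9, and 5 of 12 ANG II samples were above the highest control sample. The means were 30.5 ± 10.8 (SD, n = 12) and 19.5 ± 7.3 (SD, n = 12), with a log2 fold change of 0.67 ± 0.23 (standard error, adjusted p = 0.026, limma). Without ANG II sample 6, it was 0.59 (adjusted p = 0.0502), and without samples 4 to 6 of both groups it was 0.15 (adjusted p = 0.461). Before the adjustment, the ANG II mean was -3.56, 34.8, 9.41 and 3.89 FPKM from the control mean in the sets, from samples 1 to 3 up to samples 10 to 12. The overall difference of 11.1 FPKM did not pass the exact permutation test within sets (adjusted p = 0.055).

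Serpinf1 encodes pigment epithelium-derived factor, a secreted serpin that inhibits no protease and is known to restrain vessel growth. It ranged between 42.3 and 131 FPKM after ANG II (median 70.6) and between -0.0966 and 64.3 in controls (median 46.8). Control samples 4 to 6 were again the 3 lowest, at -0.0966, 18 and 2.74, while the other 9 controls were at 41.1 or more. The means were 79.6 ± 30.6 (SD, n = 12) and 39.6 ± 21 (SD, n = 12), and the log2 fold change was 1.46 ± 0.53 (standard error, adjusted p = 0.0353, limma). It was 0.35 without samples 4 to 6 of both groups (adjusted p = 0.126) and 1.79 without samples 10 to 12 (adjusted p = 0.0542), and with a pseudocount of 0.1 it was 1.78 (adjusted p = 0.07). The call was also lost without any 1 of 7 samples, which were ANG II samples 4, 5, 6, 8 and 11 and control samples 5 and 6 (adjusted p between 0.0516 and 0.0648). Before the adjustment, the ANG II mean was 0.883, 114, 25.1 and 24.4 FPKM above the control mean in the 4 sets. The difference over the sets of 41 FPKM passed the exact permutation test (adjusted p = 0.0223).

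Serping1 is the C1 inhibitor, which blocks the first proteases of the classical and lectin complement pathways and of the contact system. It had the highest level of the 9 genes in the control group. Values ranged between 93.9 and 275 FPKM after ANG II (median 147) and between 50 and 151 in controls (median 115), with control samples 4 to 6 at 50 to 66.9 and every other control at 113 or more. The means were 153 ± 49.9 (SD, n = 12) and 110.4 ± 32.7 (SD, n = 12). The log2 fold change was 0.48 ± 0.18 (standard error, adjusted p = 0.0418, limma), under the fold change criterion. It was 0.05 without samples 4 to 6 of both groups (adjusted p = 0.766), and adjusted p stayed under 0.05 in 15 of the 24 fits that left out 1 sample. Those that lost it lacked ANG II sample 1, 4, 5, 6, 8 or 11 or control sample 4, 5 or 6 (adjusted p between 0.0566 and 0.0797). Before the adjustment, the ANG II mean was -24.7 FPKM from the control mean in samples 1 to 3 and 202, 41.9 and 13.1 above it in the other sets (exact permutation test within sets, adjusted p = 0.0623).

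Among the clade B serpins, which work inside cells, Serpinb6a had the most even change. Serpinb6a is known as an inhibitor of cathepsin G. Its values ranged between 72.6 and 111 FPKM after ANG II (median 81) and between 52.9 and 73.5 in controls (median 62.5). All 12 ANG II samples were above the control median, and 10 of 12 were above the highest control sample. The means were 86 ± 13 (SD, n = 12) and 62.2 ± 7.14 (SD, n = 12), and the log2 fold change was 0.46 ± 0.07 (standard error, adjusted p = 5.60e-05, limma), which is 1.37-fold on the FPKM + 1 scale and under the fold change criterion. Without samples 4 to 6 of both groups it was 0.35 (adjusted p = 0.00306), and among the 24 fits that left out 1 sample it lay between 0.42 and 0.48. Before the adjustment, the ANG II mean was 3.77, 41.4, 26.4 and 21 FPKM above the control mean in the 4 sets (exact permutation test within sets, adjusted p = 0.00229). In samples 4 to 12, each ANG II sample was above every control sample of its set.

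Serpinb1a, an inhibitor of neutrophil elastase, cathepsin G and proteinase 3, ranged between 2.62 and 24.4 FPKM after ANG II (median 6.18) and between 2.05 and 7.27 in controls (median 5.49). ANG II sample 8 held the highest value, and only 4 of 12 ANG II samples were above the highest control sample. The log2 fold change was 0.45 ± 0.23 (standard error) and did not pass (adjusted p = 0.132, limma). It was 0.30 without ANG II sample 8. Before the adjustment, however, the difference of 3.45 FPKM passed the exact permutation test within sets (adjusted p = 0.0307). The ANG II mean was then -0.573, 3.94, 8.48 and 1.98 FPKM from the control mean in the 4 sets.

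Serpini1 is neuroserpin, an inhibitor of tissue plasminogen activator that is best known from neurons. It ranged between 2.68 and 4.73 FPKM after ANG II (median 3.14) and between 1.91 and 3.22 in controls (median 3.01). The groups overlapped, with 5 of 12 ANG II samples above the highest control sample. Its log2 fold change of 0.18 ± 0.07 (standard error) missed the threshold (adjusted p = 0.0555, limma). It passed without ANG II sample 7 or 10 or control sample 2, 7 or 9 (adjusted p between 0.0375 and 0.0487). Before the adjustment, the ANG II mean was above the control mean in all 4 sets, by 0.367, 1.48, 0.0533 and 0.41 FPKM, and the difference passed the exact permutation test (adjusted p = 0.0229).

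Serpinb8, an intracellular inhibitor of furin, had the lowest level of the 9, between 0.923 and 2.66 FPKM after ANG II (median 1.36) and between 0.661 and 2 in controls (median 1.14). Serpinb9, an inhibitor of granzyme B that shields cells from cytotoxic granules, ranged from 6.07 to 9.33 FPKM (median 6.84) and from 5.35 to 7.49 (median 6.55), respectively. For both genes the groups overlapped, with 2 and 4 of 12 ANG II samples above the highest control sample. The log2 fold changes were 0.21 ± 0.10 (standard error, adjusted p = 0.119, limma) for Serpinb8 and 0.12 ± 0.07 (standard error, adjusted p = 0.169, limma) for Serpinb9. Serpinb8 passed only without control sample 2 (0.25, adjusted p = 0.0484). Neither passed the exact permutation test within sets before the adjustment (adjusted p = 0.184 and 0.215). Without samples 4 to 6 of both groups, the log2 fold change was 0.04 for Serpinb8 and -0.00343 for Serpinb9.

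**Figure D2:**
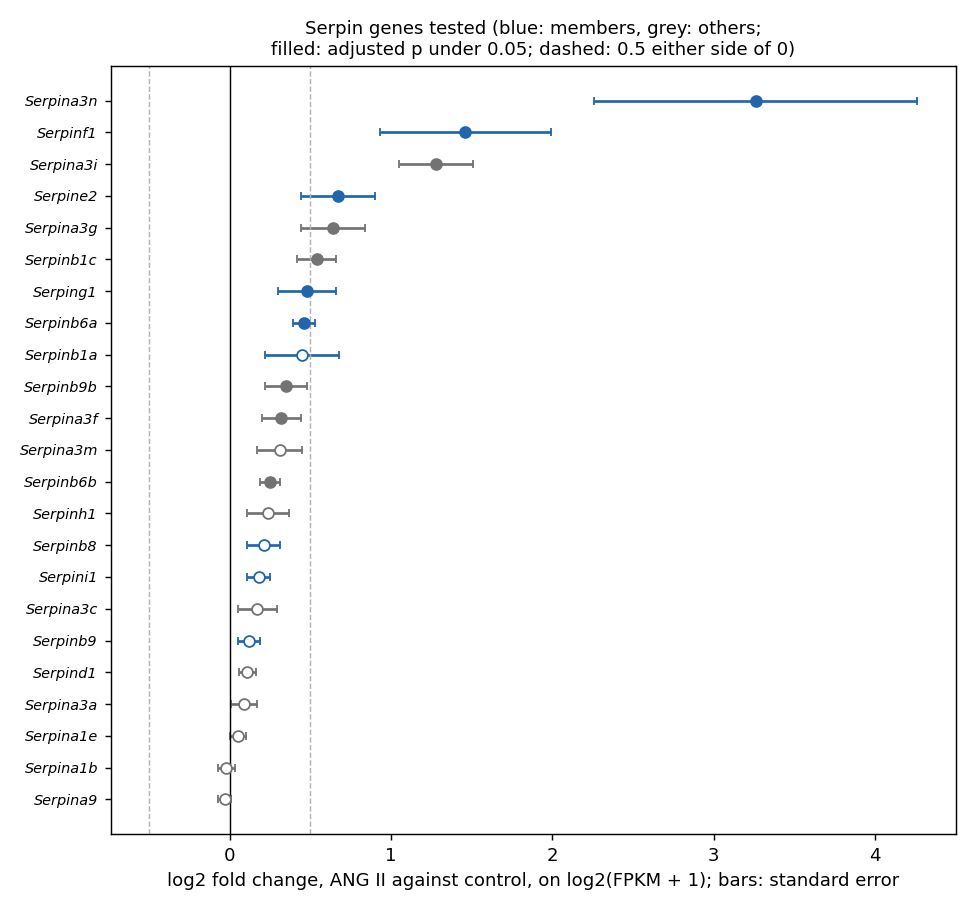
Log2 fold change of FPKM + 1 between the hypertensive-LVH and control groups (horizontal axis) for the 9 members (blue) and 14 other serpin genes tested (grey). Bars show the standard error, filled points have an adjusted p under 0.05 (limma), and dashed lines mark 0.5 on either side of 0. Serpina3n lies farthest right at 3.26 with the widest bar, and Serpinb6a at 0.46 has a bar of 0.07.

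Levels per length spanned a wide range among the 9 genes. In the control group the order of mean FPKM was Serping1 (110.4), Serpinb6a (62.2), Serpinf1 (39.6), Serpine2 (19.5), Serpina3n (19.3), Serpinb9 (6.51), Serpinb1a (5.14), Serpini1 (2.76) and Serpinb8 (1.17). Neighbours whose means differed by less than the larger of their SDs were Serpinf1 and Serpine2, Serpine2 and Serpina3n, Serpina3n and Serpinb9, and Serpinb9 and Serpinb1a. In the hypertensive-LVH group the order of mean FPKM was Serpina3n (157), Serping1 (153), Serpinb6a (86), Serpinf1 (79.6), Serpine2 (30.5), Serpinb1a (8.07), Serpinb9 (7.19), Serpini1 (3.26) and Serpinb8 (1.53). There, Serpina3n and Serping1, Serpinb6a and Serpinf1, and Serpinb1a and Serpinb9 were within this spread.

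The ANG II difference was not of 1 size across the sets. Before the adjustment, the ANG II mean was above the control mean for 3 of 9 members in samples 1 to 3 (Serpinf1, Serpinb6a and Serpini1), and for 9 of 9 in each of the other sets. Among all genes this share was 41.6%, 74.6%, 53.4% and 59.3% in the order of the sets. All 3 ANG II samples were above all 3 controls for 0 of 9 members in the first set (4.52% of all genes), for 9 of 9 in the second (41.0%), for 6 of 9 in the third (18.9%) and for 2 of 9 in the fourth (12.9%). Serpina3n and Serpinb6a were separate in all of the last 3 sets, as were 4.56% of all genes. Higher means in all 4 sets were found for 3 of 9 members, against 21.7% of all genes, and 5 of 9 members passed the exact permutation test within sets, against 17.9%. On the deposited values, the interaction of group and set passed for 4 of 9 members, against 7.49% of all genes (limma). These were Serpina3n (adjusted p = 0.0192), Serpine2 (adjusted p = 0.00336), Serpinf1 (adjusted p = 0.00383) and Serping1 (adjusted p = 0.00135). It did not pass for the clade B members and Serpini1 (adjusted p between 0.0976 and 0.361).

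**Figure D3:**
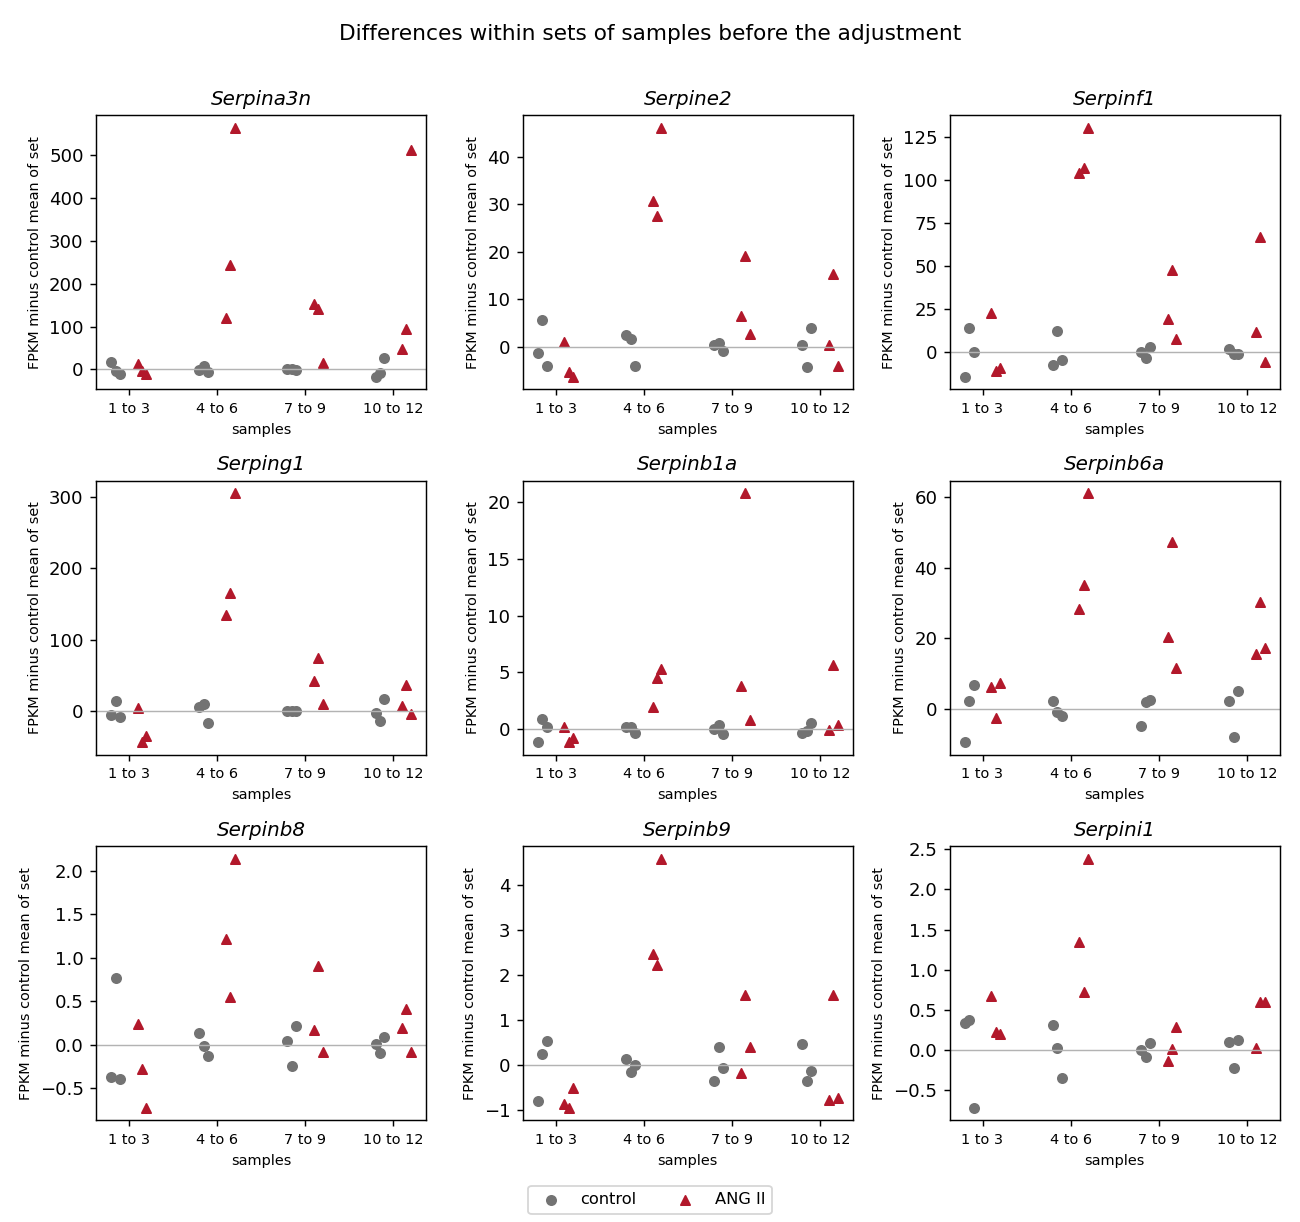
Differences in FPKM before the adjustment between each sample and the control mean of its set (vertical axis, linear, grey line at 0) for the 4 sets of samples (horizontal axis), with controls as grey circles and ANG II samples as red triangles. In samples 4 to 6 all ANG II samples of all 9 members lie above their controls, and in samples 1 to 3 the groups overlap for every member.

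Markers of fibroblasts, macrophages, smooth muscle and endothelium moved over the sets as several members did. Of 6 fibroblast markers, 3 were higher by adjusted p (limma), and their sum was 506 to 1685 FPKM in the hypertensive-LVH group against 129 to 701 in the control group. The sum differed before the adjustment by -8.27, 1308, 370.0 and 225 FPKM in the 4 sets, the same order of sets from the highest to the lowest as for Serpine2, Serpinf1, Serping1, Serpinb6a, Serpinb8 and Serpinb9, but not for Serpina3n, Serpinb1a and Serpini1. All 6 macrophage markers (Adgre1, Csf1r, Cd68, Fcgr1, Mrc1, C1qa) were higher, with sums of 119 to 343 against 88.2 to 179, and the sum differed by -11.3, 167, 130.4 and 29.4 in the 4 sets. Smooth muscle and pericyte markers differed by -32.8, 174, 30.8 and 11.2 and endothelial markers by -40.2, 105, 25.9 and -30, and the macrophage, smooth muscle and endothelial sums had the sets in the same order. How many of all genes had this order was not counted. The share of all genes with a higher ANG II mean was also largest in samples 4 to 6 (74.6%) and smallest in samples 1 to 3 (41.6%). Cardiomyocyte markers were lower for 3 of 6. Of the 6, 3 were solved before the adjustment, and their sum differed by 271, -4263, -1019 and -459 FPKM in the 4 sets, which is the reverse order. Neutrophil markers (-15.7, 6.01, 7.34 and -8.06) and T and NK cell markers (1.28, 1.96, 1.18 and 1.34) had other orders. The part of these cell types in the results for the members was not tested. Neutrophil markers were higher for 1 of 6 (2.42 to 25.9 against 4.87 to 47.2 FPKM summed), T and NK cell markers for 3 of 5 in the table (1.62 to 6.69 against 1.37 to 3.09), endothelial markers for 1 of 6 with 1 lower, and smooth muscle and pericyte markers for 1 of 6 with 1 lower. Of 6 hepatocyte markers, 3 were in the table and summed to 1.08 FPKM or less in every sample. Marker values as well as the members come from the same libraries.

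In ANG II sample 12, Serpina3n was high while Serpine2, Serpinf1 and Serping1 were not. Before the adjustment, Serpina3n was 512 FPKM above the control mean of its set in this sample, and Lcn2, an acute phase gene, was 222 above it. Timp1, from the same list of acute phase genes as Lcn2, was 14.4 above its control mean there, against 32.2 and 48.8 in ANG II samples 10 and 11. In sample 12 Serpine2 was -4.04, Serpinf1 -5.42 and Serping1 -3.4 FPKM from their control means. The summed macrophage markers of this sample were -34.1 FPKM from the control mean, and its fibroblast markers were 133 above it. Its neutrophil markers summed to 25.9 FPKM as deposited, the highest of the 12 ANG II samples, and before the adjustment they were 8.19 above the control mean of its set. Control sample 12 of this set was higher on both scales, at 29.8 FPKM as deposited and 12.2 above that mean. The part of these markers was not tested. Serpini1 was 0.603 FPKM above its control mean in this sample, and the highest control was 0.123 above it. In ANG II sample 6, by contrast, Serpina3n (564 above), Serpine2 (46.1), Serpinf1 (130.2) and Serping1 (305) were each at their highest, together with the fibroblast (1753) and macrophage (263) sums.

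Members were compared across the 24 samples on log2(FPKM + 1) as deposited, after the mean of each group within each set was removed. Of 36 pairs, 18 had a Spearman's rho over 0.5, and the median was 0.5. The share among all pairs of genes was not counted, so this is no sign of a likeness particular to serpins. The highest were Serpine2 with Serping1 (0.885) and Serpinb6a with Serpinb9 (0.814). Serpina3n had values from -0.1 to 0.491 (median 0.245) against the other 8 members, and Serpini1 had values from 0.0874 to 0.557. All points share the libraries and the adjustment, and the values are descriptions. Among 11458 genes averaging 1 FPKM or more, the 3 most like Serpina3n were Lcn2 (0.893), Spns2 (0.827) and Rassf4 (0.815). Those most like Serpine2 were Mdfic (0.923), Acvr1 (0.919) and Ctnna1 (0.912). For Serpinf1 they were Plvap (0.91), Kcnj15 (0.909) and Mfap5 (0.905), and for Serping1 they were Axl (0.925), Lsp1 (0.916) and Sfrp1 (0.914). Serpinb6a was most like Anxa7 (0.845), M6pr (0.842) and Tbrg1 (0.822), and Serpinb1a most like Adprm (0.834), Shisa3 (0.83) and Eid1 (0.83). The nearest genes were Dlg4 (0.906), Igf1 (0.883) and Clmp (0.876) for Serpinb8, Cnot8 (0.876), Actr6 (0.817) and Serpinb6a (0.814) for Serpinb9, and Cpsf7 (0.898), Nfx1 (0.847) and Setd7 (0.844) for Serpini1.

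**Figure D4:**
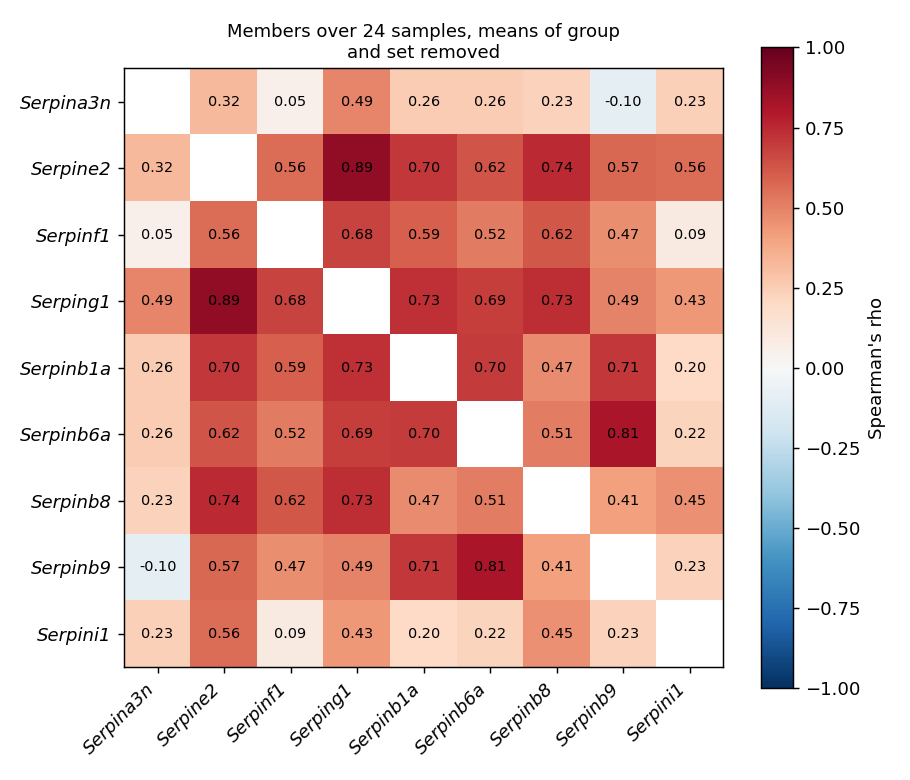
Spearman's rho between the members over the 24 samples, after the mean of each group within each set was removed from log2(FPKM + 1), with the colour scale from -1 to 1. Serpine2 and Serping1 give the highest value, 0.885, and the columns of Serpina3n (from -0.1 to 0.491) and Serpini1 (from 0.0874 to 0.557) are the palest.

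Of the other serpin genes in the table, 20 were examined, and 14 of these had a mean of at least 0.1 FPKM and were tested. By both criteria (limma) 3 of them rose, and 6 were higher by adjusted p, against 4.52% and 20.9% of all genes tested. These counts were 2 and 2 without samples 4 to 6 of both groups, against 2.30% and 8.36%. Serpina3i and Serpina3g, close relatives of Serpina3n, rose by log2 fold changes of 1.28 ± 0.23 (standard error, adjusted p = 1.99e-04) and 0.64 ± 0.20 (standard error, adjusted p = 0.0185). Their levels were low, with ANG II means of 2.49 and 1.71 FPKM. Serpinb1c rose by 0.54 ± 0.12 (standard error, adjusted p = 0.00171), and all 12 of its ANG II samples were above the controls of their set before the adjustment.

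Serpinb9b (0.35), Serpina3f (0.32) and Serpinb6b (0.25) passed by adjusted p alone (limma). In the exact permutation test within sets before the adjustment, Serpinb6b passed (adjusted p = 0.00529). Serpinb9b (adjusted p = 0.0797) and Serpina3f (adjusted p = 0.174) did not pass that test. Serpinh1, the collagen chaperone Hsp47, was at 190.3 ± 48.9 FPKM (SD, n = 12) against 159 ± 31.2 (SD, n = 12), and its log2 fold change of 0.24 did not pass (adjusted p = 0.153, limma). The others that did not pass were Serpina3m (0.31), Serpina3c (0.17), Serpind1 (0.11), Serpina3a (0.09), Serpina1e (0.05), Serpina1b (-0.02) and Serpina9 (-0.03), all under 1 FPKM on average in both groups. Of these, Serpina3m passed the exact permutation test within sets before the adjustment (adjusted p = 0.00635), with 9 of 12 ANG II samples above the controls of their set. How the counting divided reads among near copies of clades A3 and B is not given in the sources used here, so their single values are uncertain.

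The proteases and receptors that serpins act on were read from lists by role, with genes beyond the largest rise and fall of a list chosen after their values were seen. Of all genes tested, 4.52% rose by both criteria, and 2.30% did so without samples 4 to 6 of both groups. The share of all genes with an unadjusted p under 0.05 was not counted. In plasminogen activation, 4 of 7 genes rose by both criteria (limma), with a median log2 fold change of 0.52. These were Anxa2 (0.87) and S100a10 (0.70), which together bind plasminogen at cell surfaces, Plaur (0.65), the urokinase receptor, and Plat (0.52), tissue plasminogen activator. When samples 4 to 6 of both groups were left out, 3 of 7 rose. Plau, urokinase itself, had a log2 fold change of 0.25 (adjusted p = 0.187, limma).

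In coagulation, 2 of 16 genes rose by both criteria, F2r (0.61), the thrombin receptor, and Procr (0.53), the protein C receptor, and 0 of 16 did so without samples 4 to 6 of both groups, where 4 were higher at an unadjusted p under 0.05. By adjusted p alone, 7 were higher and 1 lower, which was F3, tissue factor (-0.26, adjusted p = 0.011, limma). In the exact permutation test within sets before the adjustment, F2r passed (adjusted p = 0.012). Procr (adjusted p = 0.0962) and F3 (adjusted p = 0.0822) did not pass that test. In the classical and lectin complement pathways, which hold the targets of Serping1, 4 of 10 genes rose. Among those that passed by adjusted p, Masp1 had the largest fold change (1.12 ± 0.17, standard error, adjusted p = 4.11e-05, limma), and it was 1.02 without samples 4 to 6 of both groups. The others were C1qa, C1qb and C1qc (0.65, 0.74 and 0.61), which are not proteases, and C1qa is also among the macrophage markers. The other first proteases on the list, C1ra (0.55, adjusted p = 0.0884), C1s1 (0.43, adjusted p = 0.122) and Masp2 (0.03, adjusted p = 0.841), did not pass (limma). C4b, chosen after its value was seen, had a log2 fold change of 1.37 and did not pass (adjusted p = 0.0569, limma), but it passed the exact permutation test within sets before the adjustment (adjusted p = 0.0387). Of the 10 genes, 1 rose without samples 4 to 6. In the contact and kinin system only 3 of 10 genes were tested, and Ace (0.82) and Prcp (0.51) rose (limma). When samples 4 to 6 were left out, 0 of 3 rose by both criteria, and 2 were higher at an unadjusted p under 0.05.

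Leukocyte serine proteases include the usual targets of Serpina3n, Serpinb1a, Serpinb6a and Serpinb9. However, neutrophil elastase and cathepsin G were not among the 11 genes tested from this list, which also holds Prf1, not a protease. Of these 11, 0 were higher by adjusted p (limma). In the same fit 0 were higher at an unadjusted p under 0.05, and 0 were higher by adjusted p in the Wilcoxon rank-sum test. The exact permutation test within sets before the adjustment gave 0 by adjusted p, with Gzmb nearest (adjusted p = 0.0503) and no value for Gzmk. Gzmm, granzyme M, fell by 0.68 on the log2 scale (adjusted p = 2.90e-05, limma), and before the adjustment 0 of 12 ANG II samples were above the controls of their set. The median of the list was 0.11. Cysteine proteases, which some serpins also inhibit, were higher by adjusted p for 9 of 12 genes, and 4 of 12 met both criteria. The largest log2 fold change was that of Ctss, cathepsin S of macrophages and related cells (1.33 ± 0.27, standard error, adjusted p = 6.13e-04, limma), followed by Ctsk (1.17), Ctsz (0.80) and Casp4 (0.53). Both criteria were met by 2 of 12 without samples 4 to 6 of both groups.

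Receptors that clear serpin complexes or signal for serpins rose for 1 of 11 genes, Sdc1 (0.69, adjusted p = 0.0136, limma), a heparan sulfate carrier. When samples 4 to 6 of both groups were left out, 0 of 11 did so (limma), and 1 was higher at an unadjusted p under 0.05. Their median was 0.02. Of the acute phase and IL-6 family genes, 3 of 23 rose by both criteria, which were Timp1 (3.09 ± 0.59, standard error, adjusted p = 3.48e-04, limma), Saa3 (1.11) and Cebpd (0.63), and 1 of 23 did so without samples 4 to 6. Timp1 had 4 negative control values. Lcn2, the gene most like Serpina3n, had a log2 fold change of 1.35 (adjusted p = 0.107, limma), and before the adjustment it passed the exact permutation test within sets (adjusted p = 0.0306). Over all partner lists, 20 of 93 genes rose and 1 fell by both criteria, and without samples 4 to 6 of both groups 7 rose and 1 fell. Of all 14026 genes, 634 rose and 197 fell, and without these samples 322 rose and 230 fell.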

How the data were processed

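RNA of 12 left ventricles of the hypertensive-LVH group and 12 of the control group was analysed, and 4 further samples per group of the study were not analysed here. The extraction text of the labels names CRC cells, while every other label names left ventricle. RNA was selected with oligo(dT) and sequenced as paired reads. The submitters' processing notes name Bowtie2, HISAT and RSEM, and their roles, versions and the genome build are not given in the sources used here. The authors deposited 1 value per gene and sample as FPKM. Because a shift and scaling by set had been applied, the deposited values were treated as a score on the FPKM scale, not as plain FPKM. No source used here describes that step.

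Samples of a group sharing at least 100 exactly tied genes were joined into triplets, and triplets with the same numbers in both groups into sets, since ties between the groups reached only 76 genes but the values of such triplets shared 1 step. The adjustment was modelled as 1 group difference per gene set aside, with the remainder shifted and scaled by set, and was solved from steps of 0.01 FPKM. This gave a single solution for 13465 genes (96%). The solver was tested on simulated data first. The adjustment itself used the group labels, which a permutation of labels on deposited values ignores. Depth is unknown, so no counting error is given.

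Negative values were set to 0, and limma 3.58.1 (R 4.3.3) with an intensity trend was fitted on log2(FPKM + 1) for the 14026 genes with a mean of at least 0.1, with Benjamini-Hochberg adjustment over all of them. A fold change on this scale understates that of low genes. The fit was tested on simulated data first. Printed means and SDs keep negative values. The exact permutation test exchanged labels within sets (160000 relabelings, smallest p 1.25e-05, two-sided, adjusted over all genes solved) using Python 3.11.15 with scipy 1.17.1. The labels do not state separate animals, while the methods call the samples biological replicates, and all p-values rest on these samples. Those of limma measure the spread of the values as deposited, after the adjustment by set, which used the group labels. The main fit has no term for the set and takes the 12 samples of a group as independent. Same-numbered samples of the groups were not paired in the main fit. Their deviations from the group means correlated between -0.557 and -0.001 in 12 pairs. The adjustment by set acts on these deviations, so the correlations cannot decide whether the samples are paired.

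The members, gene lists and tests were chosen with earlier results of these data known. Named were all members, every other serpin tested, the largest rise and fall of each list by adjusted p, and the 3 genes most like each member, except 1 gene that is not reported here. The alternatives were another pseudocount (0.1), other filters, median-ratio scaling, quantile normalization, a replicate block, a term for the set, no trend, permutation and rank tests, and leaving out each set and each sample.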

Additional observations from a re-analysis of the deposited data

Results flagged for a closer look

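For 4 members the ANG II difference differed between the 4 sets of samples by the limma interaction of group and set, adjusted over all genes tested, namely Serpina3n (adjusted p = 0.0192), Serpine2 (adjusted p = 0.00336), Serpinf1 (adjusted p = 0.00383) and Serping1 (adjusted p = 0.00135). With a pseudocount of 0.1, 4 members passed as well, and the share of all genes was not counted there. For Serpine2, Serpinf1 and Serping1, the difference before the adjustment was largest in samples 4 to 6 (34.8, 114 and 202 FPKM) and smallest in samples 1 to 3 (-3.56, 0.883 and -24.7 FPKM). For Serpina3n it was 309, 218 and 103 FPKM in samples 4 to 6, 10 to 12 and 7 to 9, and -0.697 FPKM in samples 1 to 3. The interaction was fitted on the deposited values, in which the sets had been adjusted, and the part of that step in its p-values was not tested. Negative values were set to 0 in this fit, which for Serpina3n were those of 5 control samples and 1 ANG II sample.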

How the results depend on the processing

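The 9 log2 fold changes were computed under 40 alternatives each. Of these 360 values, 312 kept their direction and side of the threshold, 37 lost significance, 10 gained it and 1 turned, that of Serpinb9 without samples 4 to 6 of both groups (-0.00343). By both criteria, 3 members rose in the main fit, against 4.52% of all genes, and by adjusted p alone 5 did, against 20.9%. Both criteria were met by 5 members without samples 1 to 3 and by 0 without samples 4 to 6 of both groups (2.30% of all genes). Leaving out 1 sample gave 1 to 4. Against 5 members passing by adjusted p, there was 1 without samples 4 to 6 (8.36% of all genes) and 3 without samples 10 to 12. The permutation within sets on log2 values, the same on FPKM as deposited, and the Wilcoxon rank-sum test were each passed by 3. Leaving out 1 sample gave 2 (without ANG II sample 6) to 7 (without control sample 2), and 3 without ANG II sample 4, 5, 8 or 11 or control sample 5 or 6. With the replicate number as a block, 1 member met both criteria and 2 passed by adjusted p. Of 12 same-numbered pairs, 0 correlated over 0.1, and 0 samples correlated best with their own number. These values had been adjusted by set with the group labels, so they cannot decide whether the numbers pair the samples. Higher means in all 4 sets were found for 5 members on the deposited values and for 3 before the adjustment (21.7% of all genes). Where no share stands beside a count of members here, the share of all genes at that setting was not counted. Genes of the partner lists meeting both criteria went from 21 to 8 without samples 4 to 6. The cause of these changes was not tested. The adjustment of the deposited values and the unknown depth limit every comparison of low genes such as Serpinb8.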
